A study of Rattus norvegicus with 30 samples.

Results

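T cell and cytotoxic lymphocyte genes were followed in the plantaris tendons of rats before and after tenotomy and repair. The list held 10 genes (Cd3d, Cd3e, Cd3g, Cd247, Cd8a, Cd8b, Cd2, Cd5, Lck and Nkg7), which were looked up by gene name in a table of RNA sequencing counts for 13124 genes. Of these, 9 were found and all 9 had a mean of at least 3 CPM (counts scaled to a library of 1000000 counts) in at least 1 of the 7 groups, while Cd5 was not analysed here. By the gene annotation deposited with the counts (rn6), Cd3d, Cd3e and Cd3g lie on chromosome 8, Cd247 on chromosome 13, Cd8a and Cd8b on chromosome 4, Cd2 on chromosome 2, Lck on chromosome 5 and Nkg7 on chromosome 1, and all are protein coding. Levels are CPM scaled by the trimmed mean of M-values (TMM), and they are compared between tendons and not between genes, since CPM does not correct for gene length.

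The tendons came from adult male Sprague Dawley rats of 3 months of age, and each of the 30 samples was 1 tendon. The 3 control tendons came from rats with no tenotomy and no compound. All other rats had a full tenotomy of the plantaris tendon with suture repair and were gavaged 2 times a day with GSK2894631A, an inhibitor of hematopoietic prostaglandin D synthase (HPGDS), at 0 (vehicle), 2 or 6 mg/kg. Tendons were taken 7 days after surgery (7D; 5, 4 and 3 tendons by rising dose) or 21 days after surgery (21D; 5 tendons at each dose), so the repaired groups differ from control tendons in surgery, suture and gavage together.

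The CD3 gamma, delta, epsilon and zeta chains carry the signal of the T cell receptor into the cell. CD8 is the co-receptor that binds class I major histocompatibility molecules, CD2 is an adhesion receptor, Lck is the kinase that starts the phosphorylation of the CD3 chains, and Nkg7 is a membrane protein of cytotoxic granules. Cd2, Cd247, Lck and Nkg7 are also expressed by natural killer (NK) cells, and rat NK cells carry the CD8 alpha chain, so the list marks T cells and cytotoxic lymphocytes together. In a bulk sample, a lower level from fewer cells of a type and from less RNA per cell cannot be told apart.

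All 9 genes were lowest in control tendons and highest in 7D 6 mg/kg tendons by group mean. In 8 of 9 genes, all 3 means at 7 days lay above all 3 means at 21 days, the exception being Nkg7. At 7 days the means of all 9 genes followed the order 6, 0 and 2 mg/kg, although no difference between doses passed the test for any of them. The levels of the 9 genes summed to between 4.49 and 9.58 CPM in control tendons. At 7 days they summed to 51 to 104 CPM with 0 mg/kg, 22.6 to 65 CPM with 2 mg/kg and 85.3 to 96.1 CPM with 6 mg/kg. At 21 days the sums were 23.5 to 41.5, 14.1 to 42.9 and 17.5 to 41.3 CPM with 0, 2 and 6 mg/kg.

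**Figure D1:**
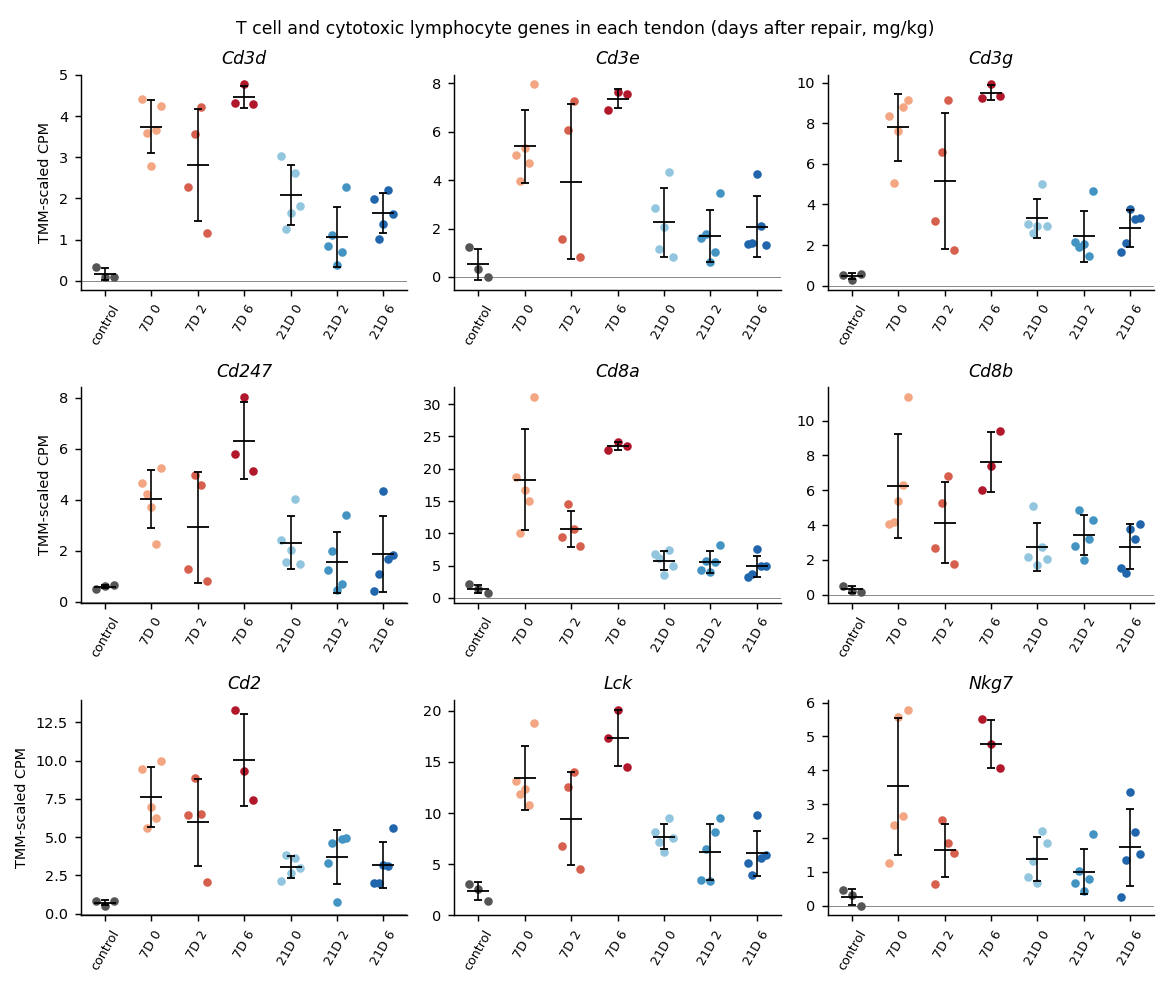
TMM-scaled CPM (vertical axes, linear) of the 9 genes in each group (horizontal axes, days after repair and dose in mg/kg). Points are single tendons, and bars are the mean and SD of 3 to 5 tendons. In each panel the control group has the lowest mean and the 7D 6 mg/kg group the highest.

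The bases before the transcription start are shown for 6 of the genes, namely the 3 CD3 chains that lie together on chromosome 8, Cd8a, which had the largest change between 7 and 21 days averaged over doses, and Cd2 and Nkg7, which hold the other motifs searched. RefSeq's promoter table for GRCr8, a newer build than the rn6 build of the counts, matched 8 of the 9 genes with 9 promoters, and Cd8b had no entry. Cd3d and Cd3g lie side by side on chromosome 8 on opposite strands, each reading away from the other, and Cd3e lies on the same chromosome. Each sequence is the 250 bases before the start, 5′ to 3′ on the gene's strand, and capitals mark matches to the letters AGGAAG (ETS factors), TGTGGT (RUNX factors) or CAGNTG (E box) on either strand.
Cd3d (chr8:54185269-54185518, plus strand): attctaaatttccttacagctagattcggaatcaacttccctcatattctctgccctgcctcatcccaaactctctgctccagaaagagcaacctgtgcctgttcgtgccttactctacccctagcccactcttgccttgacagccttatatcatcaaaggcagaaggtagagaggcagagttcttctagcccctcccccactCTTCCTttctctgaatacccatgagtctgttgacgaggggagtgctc
Cd3e (chr8:54211771-54212020, minus strand): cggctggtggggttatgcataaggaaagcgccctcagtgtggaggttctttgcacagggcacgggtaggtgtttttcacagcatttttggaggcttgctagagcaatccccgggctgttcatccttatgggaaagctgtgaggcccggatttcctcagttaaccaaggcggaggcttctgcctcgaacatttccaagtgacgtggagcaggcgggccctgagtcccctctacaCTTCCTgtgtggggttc
Cd3g (chr8:54183919-54184168, minus strand): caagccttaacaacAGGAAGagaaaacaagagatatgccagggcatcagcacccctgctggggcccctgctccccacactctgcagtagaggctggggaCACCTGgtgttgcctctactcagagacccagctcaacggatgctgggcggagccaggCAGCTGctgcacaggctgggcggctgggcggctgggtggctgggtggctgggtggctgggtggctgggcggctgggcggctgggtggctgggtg
Cd8a (chr4:104923866-104924115, plus strand): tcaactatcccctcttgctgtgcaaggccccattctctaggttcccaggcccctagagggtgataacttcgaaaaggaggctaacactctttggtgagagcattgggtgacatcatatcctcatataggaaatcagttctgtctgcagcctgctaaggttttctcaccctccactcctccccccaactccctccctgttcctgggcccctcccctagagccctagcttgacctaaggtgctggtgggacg
Cd2 (chr2:191412660-191412909, minus strand): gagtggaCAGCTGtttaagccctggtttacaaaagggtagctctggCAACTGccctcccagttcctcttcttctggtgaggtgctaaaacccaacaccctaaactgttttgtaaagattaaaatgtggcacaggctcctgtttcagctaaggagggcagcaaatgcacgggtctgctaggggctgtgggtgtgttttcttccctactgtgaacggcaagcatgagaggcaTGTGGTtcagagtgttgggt
Nkg7 (chr1:102981247-102981496, plus strand): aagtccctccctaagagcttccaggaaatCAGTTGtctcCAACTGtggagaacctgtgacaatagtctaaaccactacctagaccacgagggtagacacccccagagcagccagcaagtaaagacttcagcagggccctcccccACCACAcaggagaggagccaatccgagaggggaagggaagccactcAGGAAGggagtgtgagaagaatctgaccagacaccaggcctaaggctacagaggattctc
AGGAAG stood in 7 of the 9 promoters, those of Cd3d, Cd3e, Cd3g, Cd247 and Nkg7 and both of Lck, against 29.5% of all 33469 promoters of the same length. TGTGGT stood in 3 of 9, those of Cd2, Nkg7 and 1 of Lck, against 14.5% of all promoters. CAGNTG stood in 5 of 9, those of Cd3g, Cd247, Cd2, Nkg7 and 1 of Lck, against 43.3%. None of the 3 stood in the Cd8a window shown. Among the sequences printed, the nearest AGGAAG matches began 47 bases before the start of Cd3d, 17 bases before that of Cd3e and 60 bases before that of Nkg7, and a match of this kind is a description of the sequence.

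Total counts over the genes listed were 12405741 to 49909374 per tendon, so that 3 counts correspond to 0.0601 to 0.242 CPM, and control tendons held few counts of these genes, from 1 to 7 for Cd3d to 17 to 66 for Lck, with 0 counts of Cd3e and of Nkg7 in 1 control tendon. Skeletal muscle genes (24 contractile and metabolic genes) took 19.4% to 27.5% of counts in control tendons, 0.173% to 1.29% at 7D 0 mg/kg, 0.00927% to 0.0113% at 7D 2 mg/kg, 0.00989% to 0.0121% at 7D 6 mg/kg and 0.0665% to 9.63% over the 21D tendons.

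The first question was whether these genes differ between repaired and uninjured tendons. In 7D 0 mg/kg tendons all 9 genes were higher than in control tendons, and 35.8% of the 12558 genes tested were called higher in the same comparison. Their log2 fold changes ran from 2.47 for Lck to 4.43 for Cd3d, with a median of 3.59 against 0.05 over all genes. In 7D 2 and 7D 6 mg/kg tendons, which were compared with the same 3 control tendons, all 9 were also higher, with medians of 2.88 and 4.01 and a background of 35.8% and 34.1% of genes called higher. At 21 days all 9 were still higher with 0 mg/kg (32.2% of genes tested) and with 6 mg/kg (30.8%), and 7 of 9 with 2 mg/kg (33.8%), with medians of 2.11, 2.17 and 1.94 in that order. None of the 9 genes reached a mean of 3 CPM in control tendons, so all passed the filter on low levels only through repaired groups and these counts are descriptions. In the fit without the filter, 9 of 9 genes passed at each dose at 7 days and 9, 7 and 9 at 21 days with 0, 2 and 6 mg/kg. That fit drew on a count table of 13124 genes. Genes of low level may have been left out of it before, which the fit could not undo. A gene passed, or was called, where its p from the quasi-likelihood test of edgeR, adjusted over all genes tested by the method of Benjamini and Hochberg, lay under 0.05.

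Among the CD3 chains, Cd3d had 0.3303, 0.0802 and 0.0817 CPM in the 3 control tendons. The same gene had 4.42, 3.59, 2.798, 3.65 and 4.24 CPM at 7 days with 0 mg/kg, 2.28, 3.56, 4.21 and 1.16 CPM with 2 mg/kg and 4.33, 4.77 and 4.29 CPM with 6 mg/kg. Every 7D tendon lay above every control tendon. Against control tendons, Cd3d was 21.5-fold higher in 7D 0 mg/kg tendons, a log2 fold change of 4.43 ± 0.595 (SE, edgeR adjusted p = 4.45e-07), and 11.9-fold higher in 21D 0 mg/kg tendons (3.58 ± 0.59, edgeR adjusted p = 1.09e-05). These folds rest on 1 to 7 counts per control tendon. Cd3e, which pairs with both the gamma and the delta chain, had 1.23, 0.321 and 0 CPM in control tendons and 5.05, 3.98, 5.32, 4.72 and 7.96 CPM at 7 days with 0 mg/kg. It was 9.8-fold higher in the latter (log2 fold change 3.29 ± 0.80, edgeR adjusted p = 0.000728), with no overlap. In 7D 2 mg/kg tendons Cd3e had 1.58, 6.08, 7.27 and 0.835 CPM, and the lowest of these lay below the highest control tendon.

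Cd8a had 2.08, 1.36 and 0.817 CPM in control tendons. At 7 days it had 18.7, 10.03, 16.7, 14.96 and 31.1 CPM with 0 mg/kg, 9.39, 14.5, 10.6 and 8.09 CPM with 2 mg/kg and 22.9, 24.1 and 23.5 CPM with 6 mg/kg. The lowest 7D tendon was above the highest control tendon, and the 3 tendons at 6 mg/kg lay close together while those at 0 mg/kg spread widely. Cd8a was 12.6-fold higher in 7D 0 mg/kg than in control tendons (log2 fold change 3.65 ± 0.39, edgeR adjusted p = 1.43e-08). The beta chain gene Cd8b, which pairs with the alpha chain on most cytotoxic T cells, averaged 0.308 ± 0.187 CPM (SD, n = 3) without surgery and 6.25 ± 2.99 CPM (SD, n = 5) at 7D 0 mg/kg, and was 19.3-fold higher (edgeR adjusted p = 1.03e-06).

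The remaining genes rose in the same comparison. Cd247, the zeta chain shared by T and NK cells, rose 6.65-fold, and the adhesion receptor gene Cd2 rose 10.8-fold. The kinase gene Lck rose 5.56-fold, the smallest of the 9 changes, from 2.37 ± 0.89 CPM (SD, n = 3) to 13.4 ± 3.14 CPM (SD, n = 5). The granule gene Nkg7 rose 12-fold. The edgeR adjusted p were 0.00149, 4.2e-06, 5.78e-06 and 0.000275 in this order. At 21 days with 2 mg/kg, Cd3e (log2 fold change 1.62 ± 0.76, edgeR adjusted p = 0.0615) and Cd247 (1.36 ± 0.69, edgeR adjusted p = 0.084) did not pass the test.

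All tendons of the repaired group lay above all control tendons for 9 of 9 genes in 7D 0 mg/kg tendons (31.2% of genes tested), 8 of 9 in 7D 2 mg/kg tendons (30.1%) and 9 of 9 in 7D 6 mg/kg tendons (34.6%). At 21 days this held for 8 of 9 with 0 mg/kg (25% of genes tested), 5 of 9 with 2 mg/kg (29.5%) and 7 of 9 with 6 mg/kg (25.9%). With the compared groups fitted alone, only 4, 4 and 3 of the 9 genes reached the filter on low levels at 21 days with 0, 2 and 6 mg/kg against control tendons, and each gene that reached it passed the test. Scaling by library size alone moved the median log2 fold change of all genes against control tendons to between 0.51 and 0.64, and all 9 genes stayed higher in each comparison. Skeletal muscle genes moved the other way (24 of 24 lower in 7D 0 mg/kg tendons), and with their level as a covariate 8, 2 and 3 of 9 genes passed at 7 days with 0, 2 and 6 mg/kg and 6, 6 and 5 at 21 days. In the same fits at 7 days, 5694, 1118 and 1228 of all genes tested were called in either direction. Without the covariate these numbers were 8966, 8757 and 8529, so at 7 days calls were lost among all genes as well. At 21 days 8274, 8678 and 8054 genes were called without the covariate, and these numbers changed by smaller factors with it. No repaired tendon reached the muscle level of a control tendon, so repair and muscle content cannot be told apart.

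The second question was how these genes changed from 7 to 21 days at each dose. All 27 differences, 9 genes at 3 doses, were below 0. With 0 mg/kg, 3 of 9 genes were lower at 21 days (Cd3g, Cd8a and Cd2), where 2.47% of all genes tested were lower. With 2 mg/kg, 3 of 9 were lower (Cd3d, Cd3g and Cd8a), against 5.98% of genes tested, and with 6 mg/kg 7 of 9 were lower, all but Cd3e and Nkg7, against 4.55%. Averaged over the 3 doses, all 9 genes were lower at 21 days, where 16.8% of genes tested were. The median log2 fold change of the 9 genes was -1.24, -0.92 and -1.66 at 0, 2 and 6 mg/kg, and -1.23 averaged, against a median of all genes between 0 and 0.01. Since 4 of the 9 genes passed the filter on low levels only through the 7D groups, these counts are descriptions, and in the fit without the filter 3, 2 and 7 of 9 genes passed at 0, 2 and 6 mg/kg and 9 of 9 averaged. The same limit of the count table holds for that fit.

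**Figure D2:**
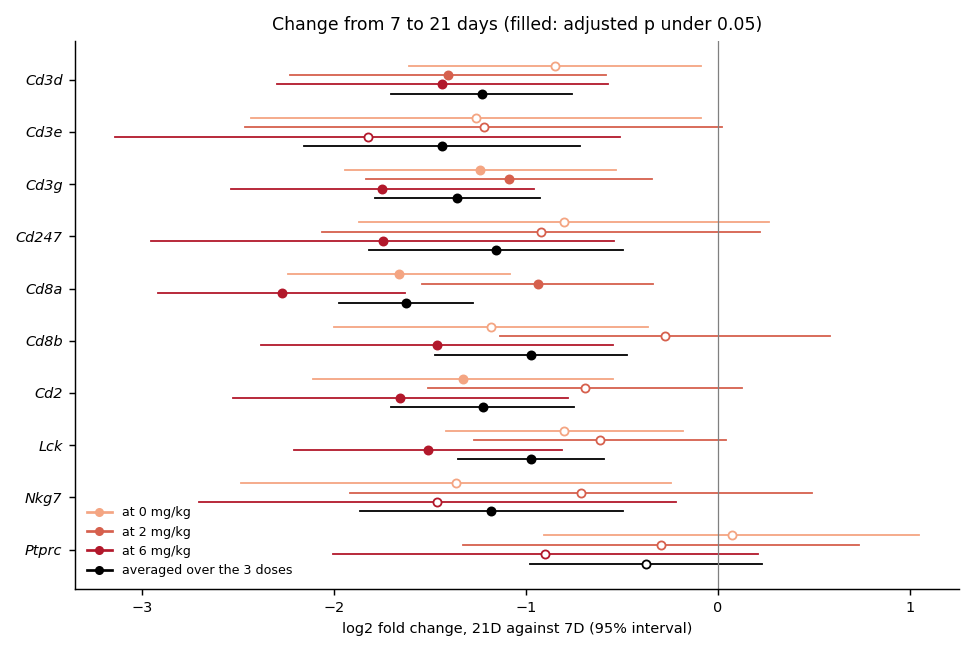
log2 fold change of 21D against 7D tendons (horizontal axis) for the 9 genes and for Ptprc, with 95% intervals, at each dose and averaged over doses. Filled points have an edgeR adjusted p under 0.05. The points of the 9 genes all lie below 0. At single doses the intervals of some of the 9 genes span 0, and averaged over doses none does. The intervals of Ptprc all span 0, with points below 0 at 2 and 6 mg/kg and averaged.

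Averaged over doses, Cd8a had the largest change with time of the 9 genes. At 21 days it had 6.83, 6.2, 3.598, 7.41 and 4.87 CPM with 0 mg/kg, 4.29, 5.69, 4.04, 5.601 and 8.23 CPM with 2 mg/kg and 3.17, 3.77, 7.5, 4.95 and 4.92 CPM with 6 mg/kg. The 21D tendons lay below all 7D tendons of the same dose with 0 and 6 mg/kg, and with 2 mg/kg the highest 21D tendon, at 8.23 CPM, passed the lowest 7D tendon, at 8.09 CPM. Cd8a fell 3.17-fold with 0 mg/kg (log2 fold change -1.66 ± 0.28, edgeR adjusted p = 0.00182), 1.92-fold with 2 mg/kg (-0.94 ± 0.29, edgeR adjusted p = 0.0336) and 4.83-fold with 6 mg/kg (-2.27 ± 0.31, edgeR adjusted p = 0.000275). Its call at 0 mg/kg was kept when any 1 of the 10 tendons was left out.

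Cd3g fell at each dose. With 0 mg/kg it had 8.34, 5.04, 7.61, 8.81 and 9.16 CPM at 7 days and 3.06, 2.61, 2.91, 5.01 and 2.94 CPM at 21 days. With 2 mg/kg it had 3.21, 6.56, 9.12 and 1.73 CPM at 7 days and 2.13, 1.93, 2.03, 1.46 and 4.64 CPM at 21 days. With 6 mg/kg it had 9.25, 9.92 and 9.34 CPM at 7 days and 1.65, 2.09, 3.77, 3.27 and 3.33 CPM at 21 days. The times did not overlap with 0 mg/kg, narrowly, or with 6 mg/kg, widely, and with 2 mg/kg 1 tendon at 7 days lay below all but 1 of those at 21 days. The fall was 2.36-fold with 0 mg/kg, 2.13-fold with 2 mg/kg and 3.36-fold with 6 mg/kg (edgeR adjusted p = 0.0349, 0.0469 and 0.00379).

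The other CD3 genes were called at fewer doses. Cd3d had 3.03, 1.26, 1.64, 2.61 and 1.82 CPM at 21 days with 0 mg/kg, 0.842, 1.12, 0.389, 0.709 and 2.27 CPM with 2 mg/kg and 1.99, 1.01, 1.37, 2.21 and 1.63 CPM with 6 mg/kg, and it fell 2.65-fold with 2 mg/kg and 2.71-fold with 6 mg/kg (edgeR adjusted p = 0.0207 and 0.0241). With 0 mg/kg its log2 fold change was -0.85 ± 0.37 (edgeR adjusted p = 0.161), and 1 tendon at 21 days, at 3.03 CPM, lay above the lowest 7D tendon, at 2.798 CPM. Cd3e had 2.84, 1.16, 2.08, 4.35 and 0.841 CPM at 21 days with 0 mg/kg and 1.35, 1.39, 4.27, 2.09 and 1.31 CPM with 6 mg/kg. Those at 6 mg/kg lay below the 6.91, 7.65 and 7.57 CPM of the 3 tendons at 7 days without overlap, but the log2 fold change of -1.83 ± 0.64 did not pass the test (edgeR adjusted p = 0.0585). Cd247 fell 3.36-fold with 6 mg/kg (edgeR adjusted p = 0.0485), a call that was kept in 1 of 8 fits with a tendon left out.

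Cd2 had 9.44, 5.62, 6.97, 6.23 and 10 CPM at 7 days and 2.102, 3.84, 2.68, 3.62 and 3.01 CPM at 21 days with 0 mg/kg. With 6 mg/kg it had 13.3, 9.31 and 7.42 CPM at 7 days and 1.99, 2, 3.15, 3.13 and 5.62 CPM at 21 days. Neither pair of groups overlapped, and Cd2 fell 2.51-fold and 3.15-fold (edgeR adjusted p = 0.041 and 0.0108). Lck had 17.3, 20.1 and 14.5 CPM at 7 days and 5.12, 3.97, 9.78, 5.62 and 5.87 CPM at 21 days with 6 mg/kg, without overlap, and fell 2.85-fold (edgeR adjusted p = 0.00464). With 0 mg/kg Lck did not overlap either, from 10.8 to 18.8 CPM at 7 days to 6.197 to 9.498 CPM at 21 days, yet its log2 fold change of -0.80 ± 0.30 did not pass the test (edgeR adjusted p = 0.105). Cd8b fell 2.76-fold with 6 mg/kg (edgeR adjusted p = 0.0301), and with 2 mg/kg its difference was the smallest of the 27, a log2 fold change of -0.28 ± 0.42 (95% interval -1.14 to 0.58). Nkg7 ran from 0.626 to 5.78 CPM over the 12 tendons at 7 days and from 0.254 to 3.36 CPM over the 15 at 21 days, and passed the test at no single dose.

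Averaged over doses, the log2 fold changes were -1.63 ± 0.17 for Cd8a, -1.44 ± 0.35 for Cd3e, -1.36 ± 0.21 for Cd3g, -1.23 ± 0.23 for Cd3d and -1.16 ± 0.32 for Cd247. They were -1.23 ± 0.23 for Cd2, -1.18 ± 0.33 for Nkg7, -0.98 ± 0.24 for Cd8b and -0.98 ± 0.19 for Lck. All 9 stayed called when any 1 of the 27 repaired tendons was left out, with edgeR adjusted p in the full fit between 1.95e-07 for Cd8a and 0.00748 for Nkg7. Ptprc, the gene of CD45 on all leukocytes, had a log2 fold change of -0.38 ± 0.29 (95% interval -0.98 to 0.23, edgeR adjusted p = 0.339). Its level in 21D 0 mg/kg tendons was 182.7 ± 161.2 CPM (SD, n = 5), with a median of 126.2 and a highest tendon of 458.6 CPM.

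The counts at single doses moved with single tendons. All 21D tendons lay below all 7D tendons of the dose for 4 of 9 genes with 0 mg/kg (Cd3g, Cd8a, Cd2 and Lck; 3.38% of genes tested), for 0 of 9 with 2 mg/kg (5.93%) and for 9 of 9 with 6 mg/kg (10.6%), and over all doses pooled for 0 of 9 (0.326%). With 0 mg/kg, 1 gene was left, Cd8a, without any 1 of 7D replicates 1, 3, 4 and 5 or of 21D replicates 1, 3 and 5, and with 2 mg/kg none was left without 7D replicate 3 or 4 or 21D replicate 1, 3 or 4, and 1 without 21D replicate 2. With 6 mg/kg, 3 genes were left without 7D replicate 1 and 4 without 7D replicate 4 or 5 or 21D replicate 2. Fits with the skeletal muscle genes as a covariate left 1, 1 and 0 of 9 genes at 0, 2 and 6 mg/kg and 1 of 9 averaged, which was Cd3d (edgeR adjusted p = 0.0255), while Cd8a at 0 mg/kg was still called (edgeR adjusted p = 0.0133). Among all genes tested, these fits called 312 at 0 mg/kg, 287 at 6 mg/kg and 1406 averaged. Without the covariate these numbers were 672, 1643 and 4484. With 2 mg/kg, where 1641 were called without the covariate, the number changed by a smaller factor than at the other doses.

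**Figure D3:**
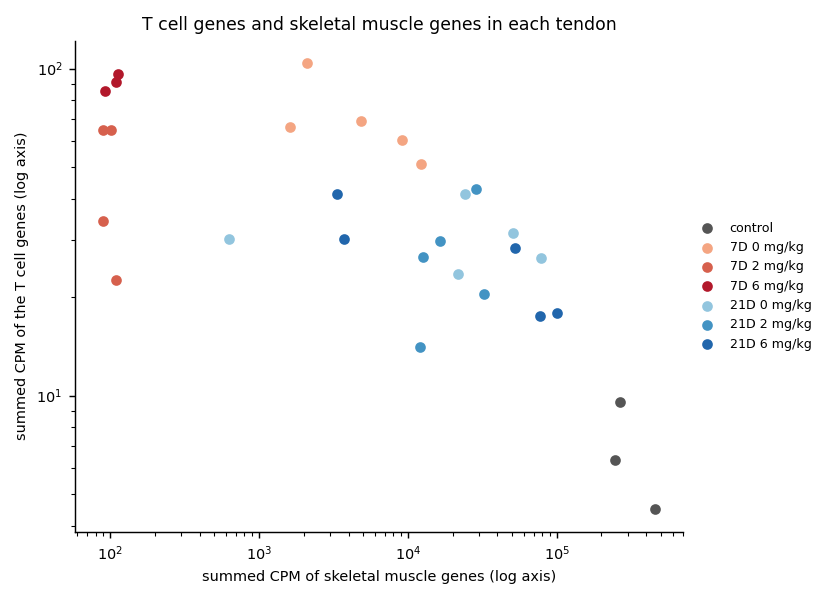
Summed CPM of the 9 T cell genes (vertical axis, log scale) against summed CPM of 24 skeletal muscle genes (horizontal axis, log scale) in each tendon, by group. The 7D tendons with 2 and 6 mg/kg lie between 89.4 and 114 CPM of muscle genes whatever their level of T cell genes, and the control tendons lie at 247000 CPM or more with the lowest sums of T cell genes.

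Skeletal muscle genes separated the 2 times fully with 2 and 6 mg/kg but not with 0 mg/kg. At 7 days their sums were 1620 to 12200 CPM with 0 mg/kg, 89.4 to 109 CPM with 2 mg/kg and 93.1 to 114 CPM with 6 mg/kg, and at 21 days they were 631 to 78600, 12100 to 32400 and 3340 to 101000 CPM. With 0 mg/kg, where these ranges overlap, 21D replicate 2 had the lowest muscle sum of all 0 mg/kg tendons, at 631 CPM. Its Cd8a level of 6.2 CPM lay among those of the other 21D tendons, its Cd2 level of 3.84 CPM was the highest of its group but below all 7D 0 mg/kg tendons, and its Cd8b level of 5.098 CPM lay above the other 21D tendons and within the range of the 7D 0 mg/kg tendons. Summed over the T cell genes, replicate 2 had 30.2 CPM, within the group's range of 23.5 to 41.5 CPM. The same tendon had the highest macrophage and pan-leukocyte sums of all tendons, 17100 and 3210 CPM. It differed in leukocyte genes as well as in muscle genes, so its levels cannot separate time from muscle content with 0 mg/kg. With 2 and 6 mg/kg the effect of time and that of muscle content cannot be told apart.

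The third question was whether the HPGDS inhibitor changed these genes. Across the 3 doses at 7 days, 0 of 9 genes passed the test, where 2.05% of genes tested did, and at 21 days 0 of 9 and 0% did. The change with time differed between doses for 0 of 9 genes, against 0.39% of genes tested. At an unadjusted p under 0.05 there was 1 gene at 7 days, 0 at 21 days and 1 for the change with time, in both cases Cd8a, and DESeq2 called 1, 0 and 0 of the 9 genes in the same tests. For Cd8a across doses at 7 days, edgeR gave an adjusted p of 0.15, edgeR with the muscle covariate 0.0244 and DESeq2 0.0399. In the same edgeR test without the covariate, 20 of 24 skeletal muscle genes were called. Their sums were 1620 to 12200 CPM with 0 mg/kg and 89.4 to 114 CPM with 2 and 6 mg/kg. At 7 days a difference of 2 or 6 from 0 mg/kg therefore cannot be told apart from muscle content. Of the 12558 genes tested, edgeR called 0 across doses at 21 days and DESeq2 138.

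In 7D 2 mg/kg tendons all 9 genes lay below 7D 0 mg/kg tendons, with log2 differences of -1.10 for Nkg7 to -0.35 for Cd2, and in 7D 6 mg/kg tendons all 9 lay above them, with differences of 0.25 for Cd3d to 0.65 for Cd247. These comparisons share the 5 tendons of 7D 0 mg/kg, and none of the 18 differences passed the test, where 1.45% of genes tested were lower with 2 mg/kg and 0% higher with 6 mg/kg. For Cd8a, 7D 6 mg/kg tendons lay 1.14 ± 0.33 above 7D 2 mg/kg tendons on the log2 scale (95% interval 0.46 to 1.81, edgeR adjusted p = 0.283). The 95% interval of Cd8a in 6 against 0 mg/kg was -0.28 to 1.001 at 7 days and -0.82 to 0.32 at 21 days, and that of Cd3e was -0.86 to 1.76 and -1.30 to 1.06. These intervals all span 0, and differences of either sign up to their limits remain compatible with the data. At 21 days the differences from 0 mg/kg ran from -0.97 (Cd3d) to 0.32 (Cd8b) with 2 mg/kg and from -0.34 (Lck) to 0.34 (Nkg7) with 6 mg/kg.

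Within groups, the 9 genes moved together from tendon to tendon. Over the 30 tendons, deviations of log2 CPM from the group mean had a Pearson r between 0.31 (Cd3d and Nkg7) and 0.78 (Cd8a and Lck) for the 36 pairs of genes, given as a description, since each tendon contributes 1 library to both genes. The 7D 2 mg/kg group was split, with replicates 3 and 4 above the group mean for 9 of 9 genes and replicate 5 below it for 8 of 9. Their mean deviations were 0.71, 0.71 and -0.99 on the log2 scale. At 21 days, replicate 3 of the 2 mg/kg group was below its group mean for 9 of 9 genes (-0.94) and replicate 5 above it for 9 of 9 (0.95). The 3 tendons of 7D 6 mg/kg were the most alike, with mean deviations between -0.09 and 0.09.

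The genes whose deviations followed the mean of the 9 most closely over the 30 tendons were Prf1 (r = 0.88), which encodes the pore-forming protein perforin, Ptprcap (0.87), which encodes a CD45-associated protein, and Bcl11b (0.87), a transcription factor gene of the T cell lineage. They were followed by Il2rb (0.85), a chain of the interleukin 2 receptor, AC109737.1 (0.84), the granzyme gene Gzmk (0.79), Oas3 (0.79), the kinase gene Txk (0.79) and Gpr174 (0.79). Among all other genes tested, r had a median of -0.01. The median r was 0.60 for other T cell genes, 0.58 for cytotoxic and NK cell genes, 0.58 for macrophage genes, 0.52 for neutrophil genes, 0.44 for B cell genes and -0.20 for skeletal muscle genes. Genes of other leukocytes therefore varied with the T cell genes from tendon to tendon as well.

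Other genes of T cell receptor signalling were described next. Of 34 listed, 23 were found and 19 tested. In 7D 0 mg/kg tendons 16 were higher and 1 lower than in control tendons, where 35.8% of genes tested were higher. Lcp2 and Lat, adaptors that assemble the signalling complex, rose by 2.37 ± 0.39 and 2.02 ± 0.34 on the log2 scale, and Il2rg, the common cytokine receptor chain, by 2.399 ± 0.43 (edgeR adjusted p = 7.54e-06, 1.05e-05 and 2.44e-05). Cd4, which rat macrophages also carry, averaged 51.3 CPM in control tendons against 133 CPM at 7D 0 mg/kg and rose by 1.37 ± 0.55 (edgeR adjusted p = 0.0275). Il2rb rose by 3.06 ± 0.61 and the transcription factor gene Tcf7 by 1.54 ± 0.37 (edgeR adjusted p = 9.19e-05 and 0.000719). Prkcq, a kinase that skeletal muscle also expresses, was the one that fell, from 144 to 11.9 CPM (log2 fold change -3.597 ± 0.56, edgeR adjusted p = 3.84e-06), and Cd6 did not pass (-0.78 ± 0.50, edgeR adjusted p = 0.166).

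From 7 to 21 days, averaged over doses, 14 of these 19 genes fell, where 16.8% of genes tested were lower. The 1 that rose, Prkcq, did so by 0.998 ± 0.309 on the log2 scale (edgeR adjusted p = 0.0137). Il2rb fell by 0.98 ± 0.27 on the log2 scale, Lat by 0.70 ± 0.16, Tcf7 by 0.59 ± 0.18, Il2rg by 0.53 ± 0.20 and Lcp2 by 0.50 ± 0.18, while Cd4 had a log2 fold change of -0.30 ± 0.28 (edgeR adjusted p = 0.428). The median of the 19 was -0.92, against -1.23 for the 9 genes. Cd28, Il2ra, Tbx21 and Sh2d2a were below the filter.

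Of 34 cytotoxic granule and NK cell genes, 17 were found and 16 tested. Of these, 15 were higher in 7D 0 mg/kg than in control tendons, where 35.8% of genes tested were higher. The NK receptor gene Klrb1a rose by 2.88 ± 0.31 on the log2 scale, Klrk1 by 2.76 ± 0.63, Klrc2 by 3.88 ± 0.85 and the chemokine gene Ccl5 by 2.51 ± 0.50 (edgeR adjusted p between 1.47e-08 and 0.000409). From 7 to 21 days 12 of 16 fell and none rose, with a median of -0.93, where 16.8% of genes tested were lower averaged over doses. Klrk1 fell by 1.39 ± 0.29, Klrc2 by 1.01 ± 0.35, Klrb1a by 0.99 ± 0.14 and Ccl5 by 0.94 ± 0.23. Klrb1a, Klrk1 and Klrc2 belong to multigene families whose copies may share reads. Tyrobp (-0.34 ± 0.22) and Hcst (-0.41 ± 0.23), which encode signalling adaptors, Cst7 (-0.30 ± 0.28) and Cd244 (-0.30 ± 0.25) did not pass the test.

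**Figure D4:**
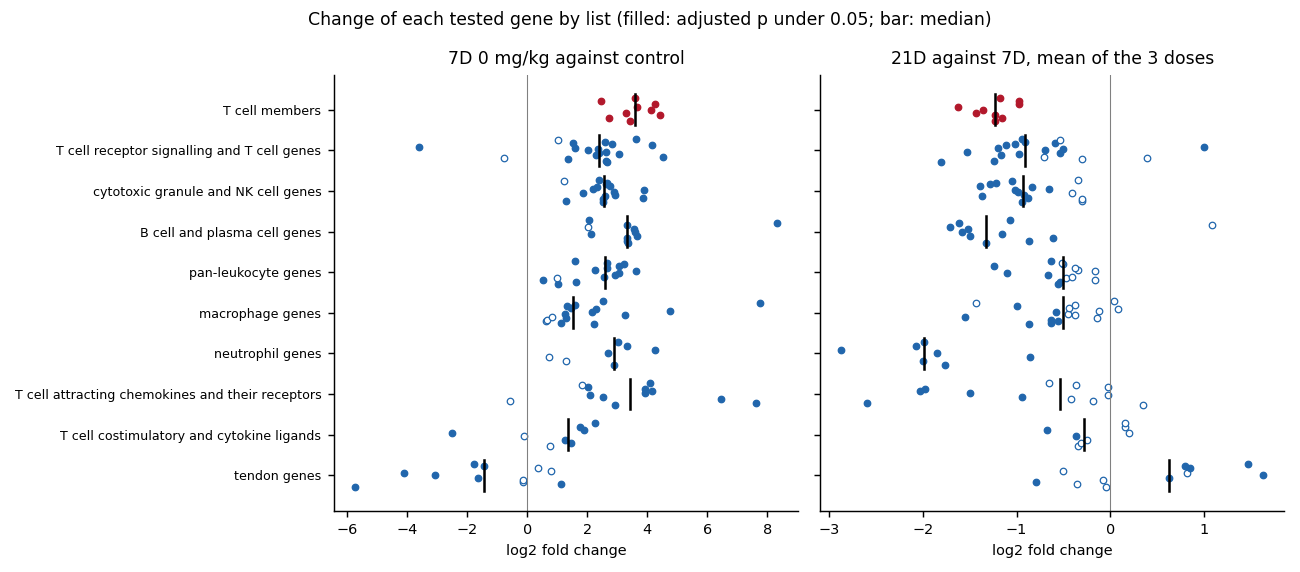
log2 fold change of each tested gene (points, filled where the edgeR adjusted p was under 0.05) by list, with the list median as a bar, for 7D 0 mg/kg against control tendons (left) and for 21D against 7D tendons averaged over doses (right). The 9 T cell genes (top row) have a median of 3.59 at left and -1.23 at right, and skeletal muscle genes, with medians of -5.77 and 6.66, are not drawn.

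Some markers of other leukocytes also fell between days. From 7 to 21 days, averaged over doses, 10 of 11 B cell genes, 7 of 7 neutrophil genes, 7 of 16 macrophage genes and 6 of 14 pan-leukocyte genes fell, with medians of -1.32, -1.99, -0.50 and -0.51, and none rose. In the same comparison 16.8% of genes tested were lower. The summed level of B cell genes was 3.02 to 8.87 CPM in control tendons, 28.3 to 125 CPM over the 7D tendons and 23.7 to 54.3 CPM over the 21D tendons, and Ms4a1, the gene of CD20, was at 0 in all 3 control tendons. Neutrophil genes summed to 5.55 to 31.8 CPM in control tendons, 27.9 to 130 CPM at 7 days and 13.3 to 48.7 CPM at 21 days. Macrophage genes summed to 538 to 2310 CPM in control tendons, 4190 to 12700 CPM at 7 days and 2450 to 17100 CPM at 21 days. By dose, 0, 0 and 9 of the 11 B cell genes were lower at 21 than at 7 days with 0, 2 and 6 mg/kg. Of all genes tested, 2.47%, 5.98% and 4.55% were lower at these doses. With 2 mg/kg 1 B cell gene was higher, Jchain, which joins antibody units in plasma cells (log2 fold change 2.47 ± 0.81, edgeR adjusted p = 0.0436). The part of these cells in the levels of the 9 genes was not tested.

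Cd3e was set against Ptprc by the ratio of their counts within each tendon, with 0.5 added to each. This ratio of 1 gene to 1 other does not measure the share of T cell transcripts as a whole. Its log2 mean was -4.99 ± 0.35 (SD, n = 5) in 7D 0 mg/kg tendons and -6.19 ± 1.87 (SD, n = 5) in 21D 0 mg/kg tendons, a difference of -1.20. With 2 mg/kg it was -5.81 ± 1.26 (SD, n = 4) and -6.42 ± 0.98 (SD, n = 5), a difference of -0.61. With 6 mg/kg it was -4.83 ± 0.37 (SD, n = 3) and -5.79 ± 0.86 (SD, n = 5), a difference of -0.96. The groups overlapped at each dose. Two-sided exact permutation tests gave p = 0.294, 0.437 and 0.107, or 0.587, 0.655 and 0.587 after Benjamini-Hochberg adjustment over 6 ratio tests, and the smallest p these designs allow is 0.00794, 0.00794 and 0.0179. The difference of Cd3e relative to Ptprc did not pass the test at any dose. These smallest p are before adjustment, and with 6 mg/kg a single test at its smallest p could not have passed after it. In 21D 0 mg/kg tendons, replicates 2 and 5 held the lowest log2 ratios, -8.60 and -7.74, which widened the spread of that group.

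The ratio of Cd8a to Cd3e counts asked whether the co-receptor gene fell more than the CD3 chain gene. Its log2 mean was 1.70 ± 0.25 (SD, n = 5) at 7 days and 1.54 ± 0.85 (SD, n = 5) at 21 days with 0 mg/kg, 1.89 ± 1.22 (SD, n = 4) and 1.88 ± 0.62 (SD, n = 5) with 2 mg/kg, and 1.67 ± 0.05 (SD, n = 3) and 1.32 ± 0.39 (SD, n = 5) with 6 mg/kg. The differences of -0.15, -0.02 and -0.35 had two-sided exact permutation p of 0.698, 0.968 and 0.196. After adjustment over the 6 ratio tests, the exact permutation p were 0.838, 0.968 and 0.587.

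**Figure D5:**
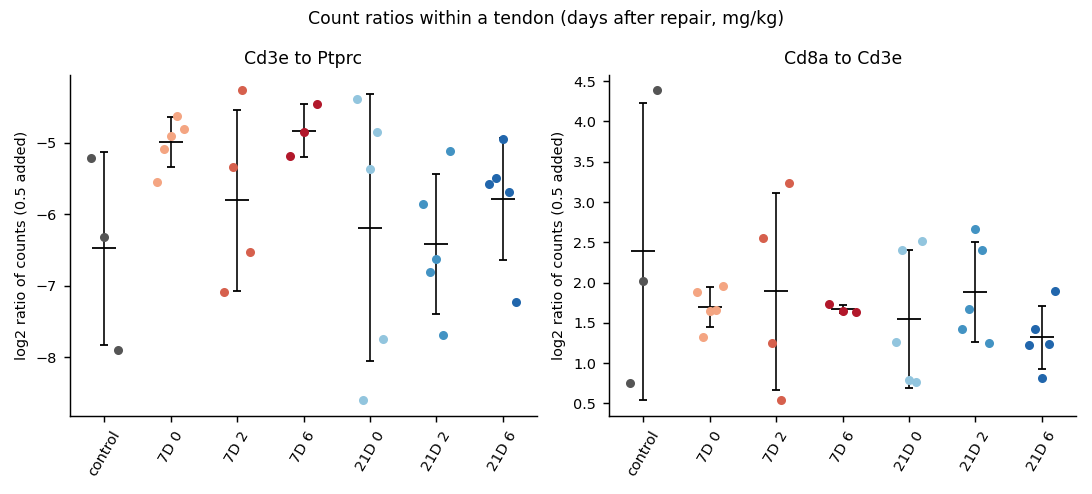
log2 ratio of counts within each tendon (vertical axes, 0.5 added to each count) for Cd3e to Ptprc (left) and Cd8a to Cd3e (right), by group (horizontal axes, days and mg/kg). Points are tendons, and bars are the mean and SD. The 7D 0 and 7D 6 mg/kg tendons lie close together, from -5.54 to -4.45 at left, and the other groups spread more widely.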

How the data were processed

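RNA from 30 rat plantaris tendons was sequenced as 50-base single-end reads. The authors trimmed reads with fastp, aligned them to rn6 with STAR and deposited raw counts of reads in Ensembl exons for each gene and tendon; whether counting used strand is not given in the sources used here, so overlapping and antisense genes cannot be told apart. The authors also deposited their own comparisons, tables of log2 fold changes, log2 CPM, p-values and adjusted p-values with a gene width column (other). Only the gene names, gene identifiers, gene types and chromosome names of these were used. Groups came from the labels, which give 3 tendons for 7D 6 mg/kg, numbered 1, 4 and 5, which is 1 fewer than the study's methods leave in that group.

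Genes were kept where the mean of any 1 group reached 3 CPM (12558 of 13124, with 566 removed). A quasi-likelihood model of all 7 groups was fitted in edgeR 4.0.16 (R 4.3.3, limma 3.58.1) with TMM scaling, whose factors were 0.599 to 0.788 in control and 0.95 to 1.1 in repaired tendons, and p-values were adjusted by the Benjamini-Hochberg method. Log2 CPM for the deviations within groups used a prior count of 2, while fold changes came from the edgeR fit at its default prior count. The SE of a log2 fold change was its absolute value divided by the square root of its F statistic. The 95% intervals of fold changes rest on this SE. Ratios used exact permutation tests. Counts of no 2 tendons of a group were alike within sampling noise (smallest chi-square per gene 29.6). The p-values measure the spread between tendons, intervals cover 95%, and the floor of 3 counts covers counting error only. The fits were tested on simulated data. Alternatives were RLE and library size scaling, TMM without muscle genes, no filter, a muscle covariate, a replicate block, fits of only the compared groups, DESeq2 1.42.0, Coro1a in place of Ptprc, and leaving out each tendon.

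The members and the gene lists were chosen with earlier results of these data known. Genes named beside the members were, in each list, the 4 tested genes with the highest mean CPM (8 in the T cell signalling and cytotoxic lists), the 10 genes whose deviations within groups were most like the members' mean, and Ptprc; some of these are not reported here. Ms4a1, Cd28, Il2ra, Tbx21 and Sh2d2a were named after their values were seen. Replicate numbers did not pair the tendons.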

Additional observations from a re-analysis of the deposited data

Results flagged for a closer look

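Of 55 sets of 4 or 5 tendons looked at (a gene or ratio in a group), 3 had 1 tendon farther from the rest than the Dixon limit allows, and chance flags about 1 in 20 groups. Each was the highest tendon of a 21D group for a CD3 chain gene. Cd3g was 5.01 CPM in 21D 0 mg/kg replicate 4, where the next tendon had 3.058 CPM, a gap of 0.814 of the group's range. Cd3g was 4.637 CPM in 21D 2 mg/kg replicate 5, where the next had 2.133 CPM, a gap of 0.789 of the range. Cd3e was 4.268 CPM in 21D 6 mg/kg replicate 3, where the next had 2.094 CPM, a gap of 0.735 of the range. The same tendons were above their group mean for 9, 9 and 8 of the 9 genes.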

How the results depend on the processing

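The 9 genes kept their direction from 7 to 21 days at every dose under each scaling, without the filter and with DESeq2, and in the fit of only the compared groups where they were tested (not Cd3d and Nkg7 at 2 mg/kg, which were below the filter there). With the muscle covariate the sign turned for Cd8b (1.39), Cd2 (0.295) and Nkg7 (0.286) at 2 mg/kg and for Cd8b at 6 mg/kg (0.128) and averaged (0.23), and the cause was not tested. The members called then were 1, 1, 0 and 1 at 0, 2 and 6 mg/kg and averaged, and against control 2 and 3 at 7 days with 2 and 6 mg/kg and 5 at 21 days with 6 mg/kg. All genes called became 312 (of 672 in the fit reported) at 0 mg/kg, 287 (of 1643) at 6 mg/kg and 1406 (of 4484) averaged. In 7D 0, 2 and 6 mg/kg against control they became 5694, 1118 and 1228 (8966, 8757 and 8529). They became 936 across doses at 7 days (258, with 1 member, Cd8a) and 665 for the dose effect between days (49). The numbers at 2 mg/kg between days and at 21 days against control changed by smaller factors. In fits of only the compared groups, members called were 1 at 2 mg/kg and 4, 4 and 3 at 21 days with 0, 2 and 6 mg/kg against control, which were all the members above the filter there, and genes called were 1 across doses at 21 days (0) and 31 for the dose effect (49). DESeq2 called 1496 genes at 0 mg/kg, 572 across doses at 7 days (1 member), 138 at 21 days and 181 for the dose effect. Without TMM scaling 1 gene was called across doses at 21 days.

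Leaving out each tendon in turn gave 203 to 1411 genes and 1 to 4 members at 0 mg/kg, 953 to 1545 genes and 0 to 3 members at 2 mg/kg, 795 to 1973 genes and 3 to 9 members at 6 mg/kg, and 9 members averaged. It gave 161 to 315 genes across doses at 7 days, 0 to 2 at 21 days and 16 to 79 for the dose effect. Cd8b at 2 mg/kg ran from -0.519 to 0.061, turning without 7D 2 mg/kg replicate 4. The log2 ratio of Cd3e to Ptprc differed by -1.65 to -0.59, -1.04 to -0.1 and -1.17 to -0.6 at the 3 doses, and that of Cd8a to Cd3e by -0.39 to 0.04 at 0 mg/kg and -0.47 to 0.43 at 2 mg/kg. Replicate numbers did not pair the tendons (76 same-number pairs, r from -0.701 to 0.681), and with the replicate block 2, 1, 5 and 9 members were called at 0, 2 and 6 mg/kg and averaged, and 28 genes for the dose effect. Of the other values, 2206 kept direction and side of the threshold, 119 lost the call, 15 gained it and 6 moved. Control tendons held 0 to 66 counts of a member, which limits folds against control.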

Other observations

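Of 12 T cell attracting chemokine and receptor genes, 5 were lower at 21 days averaged over doses (16.8% of genes tested), and none was higher. In 7D 0 mg/kg against control tendons 10 of the 12 were higher (35.8% of genes tested). Cxcl16, a chemokine gene, was among those higher at 7 days (log2 fold change 2.02), and its averaged difference between days was -0.03 without a call. Of 8 costimulatory and cytokine ligand genes, 2 fell, where 16.8% of genes tested were lower. On the log2 scale Icoslg, the ligand of the costimulatory receptor Icos, fell by 0.37 ± 0.13 and the interleukin gene Il18 by 0.67 ± 0.21. The calprotectin genes S100a8 and S100a9 of neutrophils fell by 2.07 ± 0.33 and 1.99 ± 0.38 on the log2 scale from 7 to 21 days. Of 11 tendon genes, 5 rose and 1 fell, where 4484 of the 12558 genes tested were called in either direction. Thbs4 rose by 0.85 ± 0.20 and Fmod by 0.63 ± 0.22. Col1a1 had a log2 fold change of -0.36 ± 0.17.

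The ratio of Cd8a to Cd8b counts was looked at after the values of both had been seen and has no test. Its log2 mean was 2.14 ± 0.24 (SD, n = 3) in control tendons, 1.56 ± 0.39, 1.51 ± 0.65 and 1.65 ± 0.31 in 7D tendons with 0, 2 and 6 mg/kg, and 1.13 ± 0.52, 0.72 ± 0.32 and 0.91 ± 0.49 in 21D tendons, so that it was lower at 21 days at each dose by group mean. Control values rest on 2 to 11 counts of Cd8b per tendon.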
